A study of Mus musculus with 8 samples.

Results

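The BCL2 family is described here through 10 genes picked by name: the anti-apoptotic Bcl2, Bcl2l1 and Mcl1, the effectors Bax and Bak1, and the BH3-only genes Bcl2l11, Bbc3, Pmaip1, Bid and Bad. Each of the 10 was found among the 49315 genes listed in the deposited tables. The cells were untreated, immortalized fibroblasts from mouse embryos, and RNA was sequenced in 4 libraries from Opa1-/- cells and 4 from Opa1-/- + OPA1 cells, in which OPA1 was put back into the knockout. Both groups therefore share the Opa1-/- background, and wild-type cells were not analysed here. How the cells were immortalized, whether each group is 1 clone, and which form of OPA1 was put back are not given in the sources used here. The study asked what OPA1 loss does to the transcriptome.

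BCL2 family proteins decide whether the outer mitochondrial membrane stays intact. Once activated, BAX and BAK form pores through which cytochrome c reaches the cytosol and starts the caspase cascade. The anti-apoptotic proteins hold them in check, and the BH3-only proteins occupy these guardians or activate the effectors directly. OPA1, a dynamin-like GTPase, works at the inner membrane, where it fuses mitochondria and keeps the junctions of the cristae narrow, so that cytochrome c is held inside.

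Levels are given as scaled TPM, transcripts per 1000000, which are corrected for gene length and can be compared between genes. A difference is Opa1-/- minus Opa1-/- + OPA1 on the scale log2(scaled TPM + 1), which understates the change of low genes. Differences were tested with limma-trend in 14272 genes, p-values were adjusted by Benjamini-Hochberg over all of them, and a gene was called at an adjusted p below 0.05. Whether each library had a culture of its own is not stated in the labels, and the p-values reflect nothing beyond the spread among these 8 libraries, which may be technical. The totals per gene do not separate splice forms, and protein was not measured.

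The libraries held an estimated 53.0 to 57.7 M assigned reads (M, 1000000 reads). Opa1 itself was at 14.8, 14.7, 13.7 and 12.5 TPM in the 4 Opa1-/- libraries, against 15.6, 14.6, 14.5 and 14.5 TPM in the 4 Opa1-/- + OPA1 libraries. These groups overlapped (difference -0.09, adjusted p = 0.306), so the total of the gene does not check the labels, and the group names used here are those of the labels. Of 10 fibroblast markers 8 were at 1 TPM or more in all 8 libraries, and Pdgfra and Lum were under 1 TPM in all. The summed level was 2544 to 3145 TPM in Opa1-/- and 2929 to 3331 TPM in Opa1-/- + OPA1 libraries, with Vim the highest. Among these 10 markers 1 was called higher and 4 lower in Opa1-/- cells, beside 33.0% of all genes tested called in either direction. The 5 epithelial markers summed to 12.8 to 17.7 TPM in Opa1-/- and 7.96 to 9.35 TPM in Opa1-/- + OPA1 libraries. Cdh1 made up most of that sum, and Epcam, Krt5, Krt14 and Cldn4 were under 1 TPM in all 8 libraries. The 5 neural markers, led by Tubb3, summed to 15.0 to 18.7 TPM in Opa1-/- and 21.1 to 27.0 TPM in Opa1-/- + OPA1 libraries. The part of these markers in the results was not tested. The 6 immune markers, led by Cd68, summed to 2.78 to 7.28 TPM in Opa1-/- and 4.32 to 6.39 TPM in Opa1-/- + OPA1 libraries, and the 5 skeletal muscle markers, led by Acta1, to 3.70 to 6.80 TPM in Opa1-/- and 2.92 to 4.51 TPM in Opa1-/- + OPA1 libraries. The other 5 immune and 4 muscle markers and all 5 endothelial markers, led by Kdr, were under 1 TPM throughout. Opa1-/- library 4 was shifted toward short genes (Spearman rho of its deviation with exon length -0.46 across 9406 genes, which are not independent replicates) and Opa1-/- library 3 toward long ones (rho 0.47).

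In Opa1-/- cells Bbc3, Bcl2l11, Bad, Bax and Bcl2 were higher, Bak1 and Mcl1 were lower, and Bcl2l1, Pmaip1 and Bid did not pass the test. These 7 calls among 10 members stand beside a background of 33.0% of all genes tested called, 16.3% higher and 16.8% lower. The groups did not overlap for the same 7 members, as for 36.3% of all genes tested. Differences were small: among called members the largest in scaled TPM were Bbc3, 1.37-fold higher in Opa1-/- cells, and Bak1, 1.38-fold lower. The median difference was 0.25 over the members and 0.00 over all genes tested, and the median absolute difference was 0.26 over the members and 0.16 over all genes tested. All 10 members passed the filter on low values, Pmaip1 with the fewest libraries the filter allows, 3 of Opa1-/- and 1 of Opa1-/- + OPA1. In bulk RNA, fewer cells of a type and less RNA per cell cannot be told apart.

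**Figure D1:**
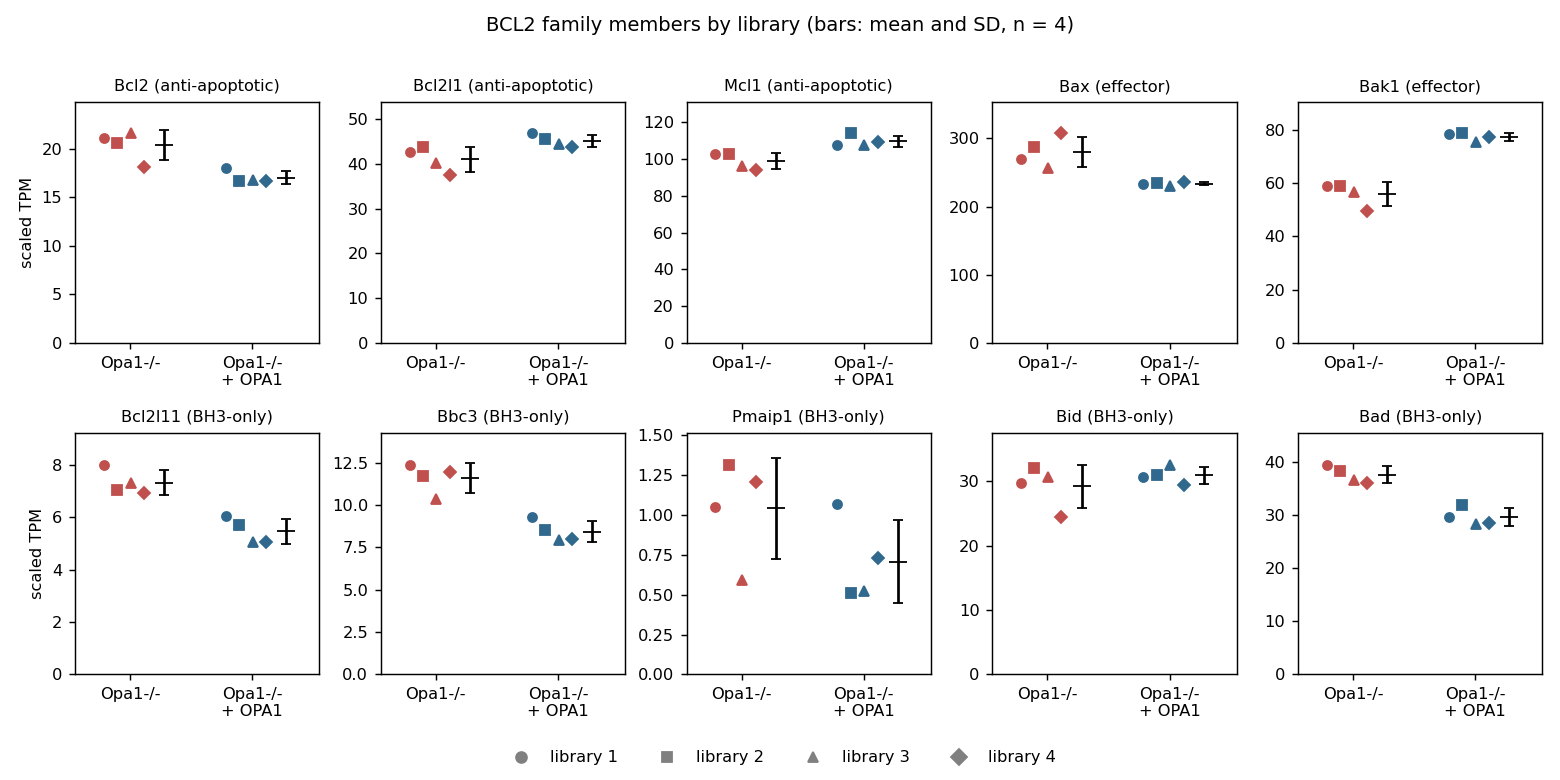
Scaled TPM of each BCL2 family member, with Opa1-/- libraries in red on the left of each panel and Opa1-/- + OPA1 libraries in blue on the right. Symbols give the library number, bars the mean and SD of 4 libraries, and each axis starts at 0. The groups are apart for 7 members and overlap for Bcl2l1, Pmaip1 and Bid.

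The effectors moved in opposite directions, with Bak1 lower and Bax higher in Opa1-/- cells. Bak1 (ENSMUSG00000057789, chr17:27019810-27029009, minus strand, GRCm38) encodes the effector that is anchored in the outer membrane even before activation. It was at 59.1, 58.9, 56.8 and 49.4 TPM in Opa1-/- libraries 1 to 4, against 78.5, 78.8, 75.3 and 77.4 TPM in Opa1-/- + OPA1 libraries 1 to 4. Every Opa1-/- library lay well below every Opa1-/- + OPA1 library, with Opa1-/- library 4 the lowest. The means were 56.1 ± 4.57 TPM in Opa1-/- and 77.5 ± 1.56 TPM in Opa1-/- + OPA1 cells (SD, n = 4 each), and Bak1 fell by 0.46 (SE 0.06, limma adjusted p = 0.000478). On the opposite strand 2 annotated genes named Ggnbp1 share 18.2% and 7.35% of the Bak1 exon bases, and no source used here states whether the counting used strand. The one with the larger overlap averaged 0.901 TPM over the 8 libraries, and no level is given here for the other.

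Bax (ENSMUSG00000003873, chr7:45461697-45466898, minus strand), the effector that resides largely in the cytosol of healthy cells, was the most abundant member. It was at 269.8, 287, 257 and 307 TPM in Opa1-/- libraries 1 to 4, against 232, 235, 231 and 235 TPM in Opa1-/- + OPA1 libraries 1 to 4. All Opa1-/- libraries were higher and also more spread, with library 4 the highest, while the Opa1-/- + OPA1 libraries lay close together. The difference was 0.26 (SE 0.05, limma adjusted p = 0.00597). Bax has the shortest exons of the members, 1576 bases against a median of 3709.5 bases over all genes tested, and once the trends of each library with length and GC content were taken out its difference was 0.14 (limma adjusted p = 0.0521). Chromosome 7 as a whole had a median difference of 0.11, and with each chromosome's median removed Bax was at 0.15 (limma adjusted p = 0.0626).

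Because the changes were opposite, the composition of the effector pool differed more than its sum. Bax and Bak1 together came to 329, 346, 314 and 357 TPM in Opa1-/- libraries 1 to 4, against 311, 314, 306 and 313 TPM in Opa1-/- + OPA1 libraries 1 to 4. The lowest Opa1-/- library was level with the highest Opa1-/- + OPA1 library. Bak1 stood at 0.161 to 0.221 of the Bax level in Opa1-/- libraries and at 0.326 to 0.338 of it in Opa1-/- + OPA1 libraries. These ratios combine chosen genes and are given without a test.

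**Figure D2:**
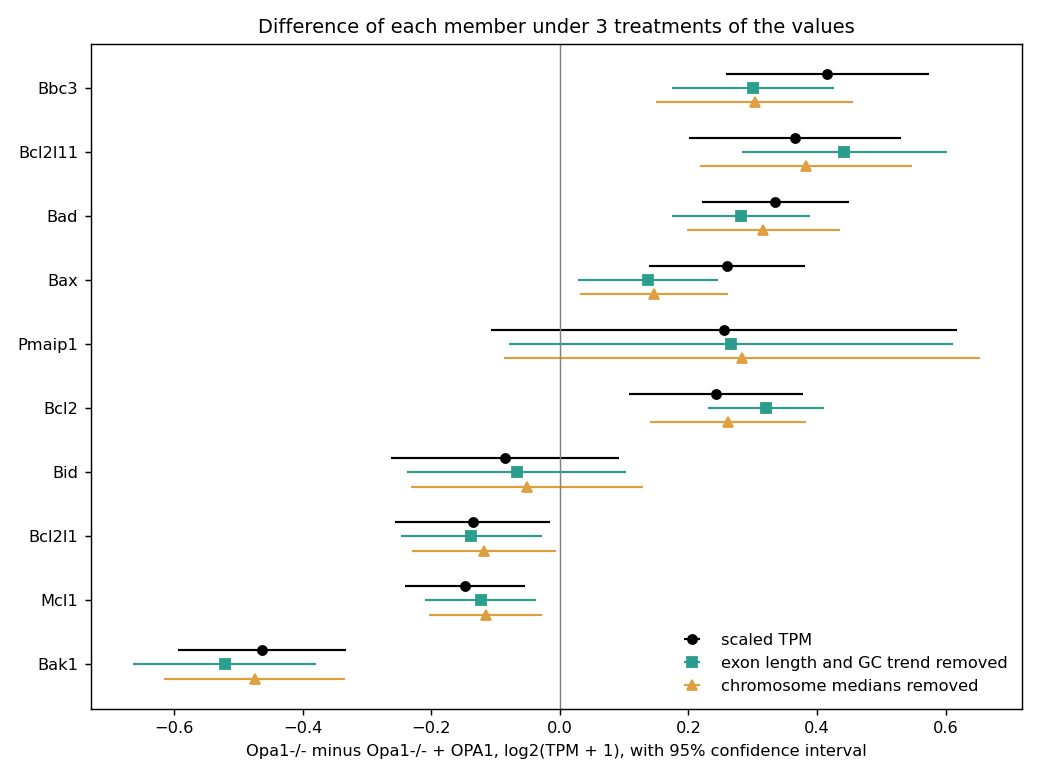
Difference of each member, Opa1-/- minus Opa1-/- + OPA1, on the log2(TPM + 1) scale with its 95% confidence interval, from scaled TPM (black circles), with exon length and GC trends removed (green squares) and with chromosome medians removed (orange triangles). Bbc3, Bcl2l11, Bad and Bak1 stay clear of 0 by a wide margin in all 3, and Bax moves closer to 0, at 0.26, 0.14 and 0.15.

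Among the BH3-only genes 3 of 5 were higher in Opa1-/- cells and none was called lower in limma, also at an unadjusted p below 0.05 (0 of 5). Bbc3 (ENSMUSG00000002083, chr7:16308393-16318205, plus strand) encodes PUMA, a p53 target that binds all the guardians. It was at 12.4, 11.7, 10.4 and 11.9 TPM in Opa1-/- libraries 1 to 4, against 9.28, 8.55, 7.94 and 7.97 TPM in Opa1-/- + OPA1 libraries 1 to 4. The lowest Opa1-/- library was above the highest Opa1-/- + OPA1 library, although Bbc3 rested on only 314 to 491 reads a library. Bbc3 rose by 0.42 (SE 0.07, limma adjusted p = 0.00213). With length and GC trends removed Bbc3 was at 0.30 (limma adjusted p = 0.00303), and with chromosome medians removed at 0.30 (0.0110). In those fits Bcl2l11, at 0.44 and 0.38, had the largest rise of the members.

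Bcl2l11 (ENSMUSG00000027381, chr2:128126038-128162547, plus strand) encodes BIM, which responds to loss of growth factors and can activate the effectors directly. Its levels were 8.01, 7.04, 7.32 and 6.95 TPM in Opa1-/- libraries 1 to 4 and 6.05, 5.70, 5.06 and 5.08 TPM in Opa1-/- + OPA1 libraries 1 to 4. The groups did not overlap, and library 1 was the highest in each. Bcl2l11 rose by 0.37 (SE 0.07, limma adjusted p = 0.00504), a 1.34-fold higher mean level in Opa1-/- cells.

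Bad (ENSMUSG00000024959, chr19:6941861-6951899, plus strand) encodes a BH3-only protein that is kept inactive by phosphorylation when survival kinases are active. It was at 39.6, 38.4, 36.8 and 36.0 TPM in Opa1-/- libraries 1 to 4, against 29.7, 32.0, 28.4 and 28.6 TPM in Opa1-/- + OPA1 libraries 1 to 4. The groups were clearly apart, with a difference of 0.34 (SE 0.05, limma adjusted p = 0.00120). Gpr137 on the opposite strand shares 20.5% of the Bad exon bases. Gpr137 was itself higher in Opa1-/- cells, at 20.8 ± 1.93 TPM against 16.0 ± 0.726 TPM in Opa1-/- + OPA1 cells (SD, n = 4 each; limma adjusted p = 0.00428), and its part in the Bad result was not tested.

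Bid and Pmaip1 did not pass the test. Bid (chr6:120891930-120916853, minus strand), which links death receptors to mitochondria after cleavage by caspase-8, was at 29.7, 32.0, 30.6 and 24.4 TPM in Opa1-/- libraries 1 to 4 and at 30.6, 30.9, 32.6 and 29.5 TPM in Opa1-/- + OPA1 libraries 1 to 4. Apart from Opa1-/- library 4, the lowest of all, the libraries lay in one range. The difference was -0.09 (95% confidence interval -0.26 to 0.09, limma adjusted p = 0.445). Bcl2l13 on the opposite strand shares 17.7% of the Bid exon bases. Pmaip1, which encodes NOXA, an antagonist of MCL1, was the scarcest member, with 26 to 65 reads a library. It was at 1.05, 1.32, 0.594 and 1.21 TPM in Opa1-/- libraries 1 to 4 and at 1.07, 0.509, 0.521 and 0.731 TPM in Opa1-/- + OPA1 libraries 1 to 4. Low and high libraries occurred in both groups, and the interval of its difference, 0.26, reached from -0.11 to 0.62 (limma adjusted p = 0.259).

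Promoter windows of the members were taken from RefSeq (GRCm38.p6), 250 bases before to 50 after each start, and 9 of the 10 members had 15 windows among 32851 in all. They are shown for 3 members called higher, each with a match to a short motif searched on both strands. The FOXO letters TGTTTAC occurred in 3.65% of all windows and in a window of Bcl2l11, 227 bases before the start, and of Bbc3, 167 bases before it. Both genes are known FOXO3 targets. The E-box letters CACGTG, bound by MYC and related factors, occurred in 7.15% of all windows, in the Bax window 9 bases before and 35 after the start, and in another Bbc3 window 64 bases before its start. The E-box and FOXO letters do not overlap. The letters TGATGNAA, an ATF4 and C/EBP composite found in 3.97% of all windows, and the full p53 site, found in 0.0731%, were in none of the 15. A match is a description of letters and not of binding. The windows of Bcl2l11 (chr2:128125788-128126087, plus strand), Bbc3 (chr7:16310011-16310310, plus strand) and Bax (chr7:45466849-45467148, minus strand) read 5′ to 3′ as follows, with the FOXO letters or their reverse complement in capitals in Bcl2l11 and Bbc3 and the E-box letters in capitals in Bax.
Bcl2l11: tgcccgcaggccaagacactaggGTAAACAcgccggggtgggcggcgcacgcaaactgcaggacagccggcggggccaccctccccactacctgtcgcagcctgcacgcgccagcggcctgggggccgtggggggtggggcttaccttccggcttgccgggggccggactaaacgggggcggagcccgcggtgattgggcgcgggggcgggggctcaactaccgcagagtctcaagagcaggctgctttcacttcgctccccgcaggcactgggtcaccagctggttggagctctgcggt
Bbc3: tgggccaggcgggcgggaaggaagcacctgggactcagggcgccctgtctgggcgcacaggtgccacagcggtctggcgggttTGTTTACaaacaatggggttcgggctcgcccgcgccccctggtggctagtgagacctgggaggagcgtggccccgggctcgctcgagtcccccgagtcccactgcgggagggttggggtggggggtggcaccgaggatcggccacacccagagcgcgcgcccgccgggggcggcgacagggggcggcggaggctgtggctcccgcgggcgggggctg
Bax: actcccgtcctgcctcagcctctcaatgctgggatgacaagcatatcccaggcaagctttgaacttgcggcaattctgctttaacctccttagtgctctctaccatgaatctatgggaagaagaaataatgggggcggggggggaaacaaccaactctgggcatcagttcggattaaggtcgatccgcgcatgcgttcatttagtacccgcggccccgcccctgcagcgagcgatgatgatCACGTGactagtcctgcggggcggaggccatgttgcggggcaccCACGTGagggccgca

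Of the 3 anti-apoptotic genes 1 was higher, 1 lower and 1 not called. Bcl2 (ENSMUSG00000057329, chr1:106538178-106714274, minus strand), the founding member, guards mitochondrial and endoplasmic reticulum membranes. It was at 21.1, 20.5, 21.6 and 18.1 TPM in Opa1-/- libraries 1 to 4, against 18.0, 16.7, 16.7 and 16.7 TPM in Opa1-/- + OPA1 libraries 1 to 4. The groups nearly met, between Opa1-/- library 4 and Opa1-/- + OPA1 library 1. Bcl2 rose by 0.24 (SE 0.06, limma adjusted p = 0.0133). The call was lost on TPM as deposited (limma adjusted p = 0.0729), with no filter on low values (0.0628) and without both libraries numbered 3 (0.0795). It was kept with length and GC trends removed (0.32, limma adjusted p = 0.000385) and with chromosome medians removed (0.26, 0.00724).

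Mcl1 (chr3:95658788-95663176, plus strand), a guardian whose protein turns over within a short time, was the most abundant of the anti-apoptotic genes. It was at 103, 103, 96.3 and 94.2 TPM in Opa1-/- libraries 1 to 4, against 108, 114, 108 and 109 TPM in Opa1-/- + OPA1 libraries 1 to 4. All Opa1-/- libraries were lower, by a narrow margin. Mcl1 fell by 0.15 (SE 0.04, limma adjusted p = 0.0236). The call did not hold without Opa1-/- library 3 (limma adjusted p = 0.0519) or without Opa1-/- + OPA1 library 2 (0.0705) or 4 (0.0568). It was also lost without both libraries numbered 3 (limma adjusted p = 0.0895), on TPM as deposited (0.0981) and with chromosome medians removed (0.0557).

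Bcl2l1 (chr2:152780668-152831728, minus strand) encodes BCL-XL and a shorter splice form that promotes death. It was at 42.7, 43.8, 40.1 and 37.4 TPM in Opa1-/- libraries 1 to 4, against 46.8, 45.4, 44.4 and 43.7 TPM in Opa1-/- + OPA1 libraries 1 to 4. Opa1-/- library 2 just overlapped the lowest Opa1-/- + OPA1 library. The difference was -0.14 (95% confidence interval -0.26 to -0.02, limma adjusted p = 0.0807). With the replicate number as a block, which pairs same-numbered libraries, the limma adjusted p was 0.0495.

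The summed level of the 3 anti-apoptotic genes was 167, 167, 158 and 149.8 TPM in Opa1-/- libraries 1 to 4, against 172, 176, 169 and 169.7 TPM in Opa1-/- + OPA1 libraries 1 to 4. The 5 BH3-only genes summed to 90.7, 90.5, 85.7 and 80.6 TPM in Opa1-/- libraries 1 to 4, against 76.7, 77.7, 74.5 and 71.9 TPM in Opa1-/- + OPA1 libraries 1 to 4. In scaled TPM neither pair of groups overlapped, the anti-apoptotic sum being lower and the BH3-only sum higher in Opa1-/- libraries. On TPM as deposited the groups overlapped for both sums. Bcl2 made up 12.1% to 13.7% of the anti-apoptotic sum in Opa1-/- libraries and 9.46% to 10.4% of it in Opa1-/- + OPA1 libraries. The ratio of Bax to Bcl2, often used as a measure of apoptotic readiness, averaged 13.9 ± 2.20 in Opa1-/- and 13.7 ± 0.550 in Opa1-/- + OPA1 libraries (SD, n = 4 each). Both of its parts were higher in Opa1-/- cells, and the groups overlapped. Bax has the shortest exons of the members and Bcl2 the longest, 1576 against 9157 bases. In Opa1-/- cells the ratio was lowest in library 3, at 11.9, and highest in library 4, at 16.9, the libraries shifted toward long and short genes. With length and GC trends removed the difference was 0.32 for Bcl2 and 0.14 for Bax, and the ratio was not recomputed there. No test is given for these sums and ratios.

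**Figure D3:**
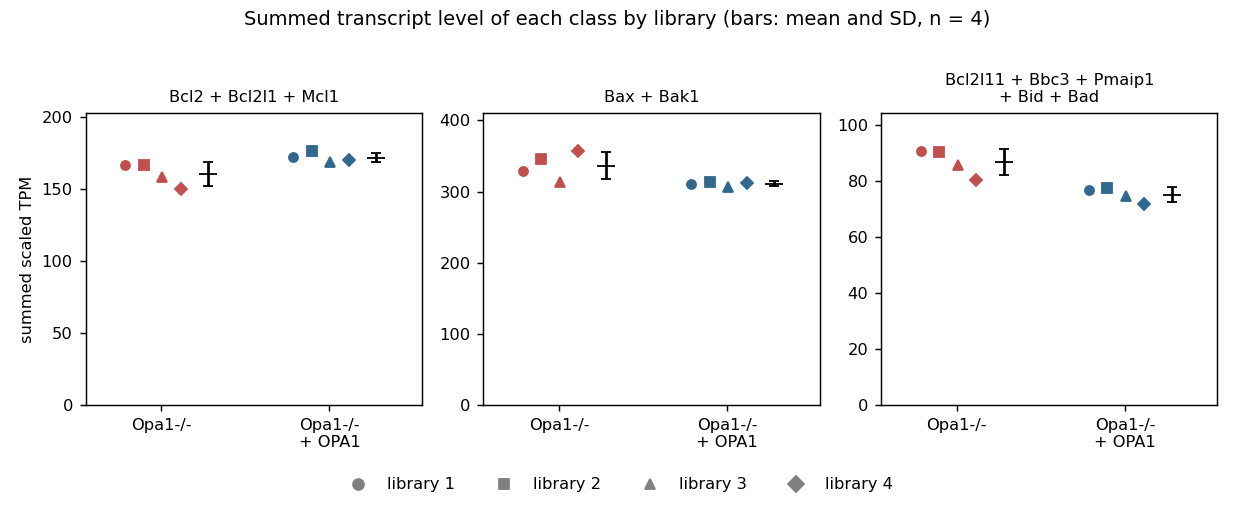
Summed scaled TPM of the anti-apoptotic, effector and BH3-only members in each library, Opa1-/- in red on the left and Opa1-/- + OPA1 in blue on the right of each panel, with bars for the mean and SD of 4 libraries. The anti-apoptotic sum averages 160.3 TPM in Opa1-/- and 172 TPM in Opa1-/- + OPA1 libraries, the effector sum 336 TPM in Opa1-/- and 311 TPM in Opa1-/- + OPA1, and the BH3-only sum 86.9 TPM in Opa1-/- and 75.2 TPM in Opa1-/- + OPA1.

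By mean level in Opa1-/- cells the members ran Bax, Mcl1, Bak1, Bcl2l1, Bad, Bid, Bcl2, Bbc3, Bcl2l11 and Pmaip1. Of neighbours in this order only Bcl2l1 and Bad had overlapping ranges. In Opa1-/- + OPA1 cells the order was the same except that Bid stood above Bad, and there only the ranges of Bid and Bad overlapped. Bax alone averaged 280.3 ± 21.9 TPM in Opa1-/- and 233 ± 2.16 TPM in Opa1-/- + OPA1 cells (SD, n = 4 each), above Mcl1 at 99.0 ± 4.37 TPM in Opa1-/- and 109.7 ± 3.01 TPM in Opa1-/- + OPA1 cells.

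Of 16 other BCL2 family and BH3-containing genes 9 were tested, of which 2 were higher, 1 lower and 6 not called in Opa1-/- cells (median difference 0.14), and 3 calls among 9 are at the background of 33.0% called. The count called lower was 2 without Opa1-/- library 2, 3 or 4 and with a filter of 5 TPM, and 3 with protein-coding genes alone. Bnip3, a mitophagy receptor of the outer membrane, was at 31.4 ± 1.87 TPM in Opa1-/- and 23.3 ± 0.0422 TPM in Opa1-/- + OPA1 cells (SD, n = 4 each; difference 0.42, limma adjusted p = 0.000274). Becn1, the autophagy protein that BCL2 binds through a BH3 motif, rose by 0.24 (limma adjusted p = 0.00337). Bok, an effector-like member, went the same way as Bak1, at 103.8 ± 5.76 TPM in Opa1-/- and 135 ± 5.85 TPM in Opa1-/- + OPA1 cells (difference -0.38, limma adjusted p = 0.000603). Bcl2l13, a mitophagy receptor related to BCL2, had groups that did not overlap, at 31.3 ± 2.78 TPM in Opa1-/- and 35.7 ± 1.46 TPM in Opa1-/- + OPA1 cells (difference -0.19, limma adjusted p = 0.0517). It was called without Opa1-/- library 3 (limma adjusted p = 0.0317) or 4 (0.0418), with a filter of 5 TPM (0.0479) and with protein-coding genes alone (0.0281). Bnip3l, another mitophagy receptor, had a difference of -0.18 (limma adjusted p = 0.0625) and was called without Opa1-/- library 2 (0.0349) and with protein-coding genes alone (0.0362). Bmf, a BH3-only gene singled out after its values were seen, had a difference of 0.36 that was called with the replicate block (limma adjusted p = 0.0319) and not without it (0.179). Bcl2l15, Hrk, Bcl2l14, Bcl2l10, Bcl2a1a, Bcl2a1b and Bcl2a1d were below the filter, at 0.444 TPM or less in every library.

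Downstream of the pore, 4 of 12 apoptosome, caspase and adaptor genes were lower in Opa1-/- cells and none was higher in limma, 0 also at an unadjusted p below 0.05 (median difference -0.05). The 4 calls among 12 genes are at the background of 33.0% called over all genes tested, so the count is no result about the list. Dffb, the nuclease that cuts DNA between nucleosomes, fell by 0.40 (limma adjusted p = 0.00315). With chromosome medians removed Dffb was at -0.25 (limma adjusted p = 0.0402). Casp2, an initiator caspase, fell by 0.21 (limma adjusted p = 0.00882), was at -0.14 with length and GC trends removed (0.0351), and was not called on TPM as deposited (0.0874). Apaf1, the apoptosome scaffold, fell by 0.26 (limma adjusted p = 0.0252). Its call was lost without Opa1-/- + OPA1 library 1 (limma adjusted p = 0.0553) or 3 (0.0754), without both libraries numbered 3 (0.0566), on TPM as deposited (0.0990) and with no filter (0.0630). Cycs, which encodes cytochrome c, was at 201 ± 16.6 TPM in Opa1-/- and 205 ± 6.02 TPM in Opa1-/- + OPA1 cells (SD, n = 4 each; limma adjusted p = 0.717).

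Of 9 genes for released mitochondrial factors and inhibitor of apoptosis proteins, 2 were higher, 4 lower and 3 not called (median difference -0.07). The background is 33.0% of all genes tested called, 16.3% higher and 16.8% lower. With chromosome medians removed 0 were called higher and 2 lower. The count called higher was also 0 on TPM as deposited, with no filter and without both libraries numbered 3. The same held without Opa1-/- + OPA1 library 1, 3 or 4. Aifm1, which encodes the flavoprotein AIF, fell by 0.39 (limma adjusted p = 0.000192) and Xiap, a direct caspase inhibitor, by 0.37 (0.00175). Both lie on the X chromosome, where the median difference over 301 genes was -0.36, and with chromosome medians removed they were at -0.04 (limma adjusted p = 0.450) and -0.02 (0.814). Xiap was at -0.23 with length and GC trends removed (limma adjusted p = 0.00366). Birc6, a giant inhibitor of apoptosis, fell by 0.35 (limma adjusted p = 0.0129, and 0.0513 on TPM as deposited). Birc3, a ubiquitin ligase of death receptor complexes, fell by 0.30 (limma adjusted p = 0.00357). Birc2 and Diablo, named after their values were seen, were higher by 0.20 and 0.18 (limma adjusted p = 0.0277 and 0.0432). With chromosome medians removed Birc2 was at 0.11 (limma adjusted p = 0.245) and Diablo at 0.11 (0.204), and the block left Diablo uncalled (0.0546). Birc2 was also not called without Opa1-/- library 3 or any 1 of the 4 Opa1-/- + OPA1 libraries (limma adjusted p of 0.0523 to 0.0796), nor Diablo without Opa1-/- library 2 or any 1 of the 4 Opa1-/- + OPA1 libraries (0.0660 to 0.112).

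Among 12 transcription factors known to act on BCL2 family genes 11 were tested, of which 4 were higher, 3 lower and 4 not called (median difference -0.05). The background is 33.0% of all genes tested called, 16.3% higher and 16.8% lower. The count called higher was 2 without both libraries numbered 3 and 2 with a filter of 5 TPM. With length and GC trends removed and the replicate block, 5 were called lower. Stat5a, which acts on Bcl2l1 downstream of cytokines, was at 4.05 ± 0.317 TPM in Opa1-/- and 2.28 ± 0.172 TPM in Opa1-/- + OPA1 cells (SD, n = 4 each; difference 0.62, limma adjusted p = 0.000510). Ddit3, which encodes the stress factor CHOP, was at 29.2, 31.3, 37.1 and 41.7 TPM in Opa1-/- libraries 1 to 4, against 22.7, 20.03, 24.6 and 27.6 TPM in Opa1-/- + OPA1 libraries 1 to 4. These groups stood close without overlapping (difference 0.53, limma adjusted p = 0.0105, and 0.0538 without both libraries numbered 3). Jun fell by 0.56 (limma adjusted p = 0.00274). Foxo3, which acts on Bcl2l11 and Bbc3, fell by 0.47 (limma adjusted p = 0.000682), averaging 15.5 TPM in Opa1-/- and 21.9 TPM in Opa1-/- + OPA1 cells. Its relative Foxo1, named after its values were seen, was higher by 0.44 (limma adjusted p = 0.0170). Foxo1 was much scarcer, averaging 2.53 TPM in Opa1-/- and 1.585 TPM in Opa1-/- + OPA1 cells, near the filter. The Foxo1 call was lost with no filter (limma adjusted p = 0.0666) and without both libraries numbered 3 (0.0744). Trp53, which encodes p53, had a difference of -0.13 (limma adjusted p = 0.0929, and 0.00110 without Opa1-/- library 4). Atf4 at 0.26 and Myc at -0.19 were not called (limma adjusted p = 0.0731 and 0.324), and both were called with the replicate block (0.00322 and 0.0231). Atf4 was also called without Opa1-/- library 1 (limma adjusted p = 0.0452) and with protein-coding genes alone (0.0448). Trp73 was below the filter.

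Of 18 genes for turnover, kinases and membrane partners of the family 6 were lower and 12 not called, and none was higher in limma, 0 also at an unadjusted p below 0.05 (median difference -0.04). The 6 calls among 18 genes are at the background of 33.0% called. In 3 alternatives 1 gene was called higher: Bag3 without Opa1-/- library 4 (0.15, limma adjusted p = 0.0288), Btrc with length and GC trends removed (0.20, 0.0461) and Pim2 with chromosome medians removed (0.46, 0.00812). The count called lower was 2 without both libraries numbered 3 and 1 with chromosome medians removed. Usp9x, which removes ubiquitin from MCL1, fell by 0.80 (limma adjusted p = 0.00329), and Huwe1, a ubiquitin ligase for MCL1, fell by 0.51 (0.00314). Both are X-linked, and with chromosome medians removed Usp9x was at -0.46 (limma adjusted p = 0.0455) and Huwe1 at -0.17 (0.209). Bag4, a co-chaperone, fell by 0.32 (limma adjusted p = 0.0166), was at -0.13 with chromosome medians removed (0.242), and was not called without both libraries numbered 3 (0.0630). Mapk8, the kinase JNK1, fell by 0.24 (limma adjusted p = 0.0416), a call that was lost in 7 of the 8 fits that left out 1 library, all but the one without Opa1-/- library 1, with an adjusted p of up to 0.1004. With chromosome medians removed Mapk8 was at -0.07 (limma adjusted p = 0.561). Vdac2 and Bag1, the remaining calls, fell by 0.17 and 0.16 and were at 0.00 and -0.01 with chromosome medians removed (limma adjusted p = 0.992 and 0.899). Pim3, named after its values were seen, was called with the block (limma adjusted p = 0.0112) and not without it (0.154).

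**Figure D4:**
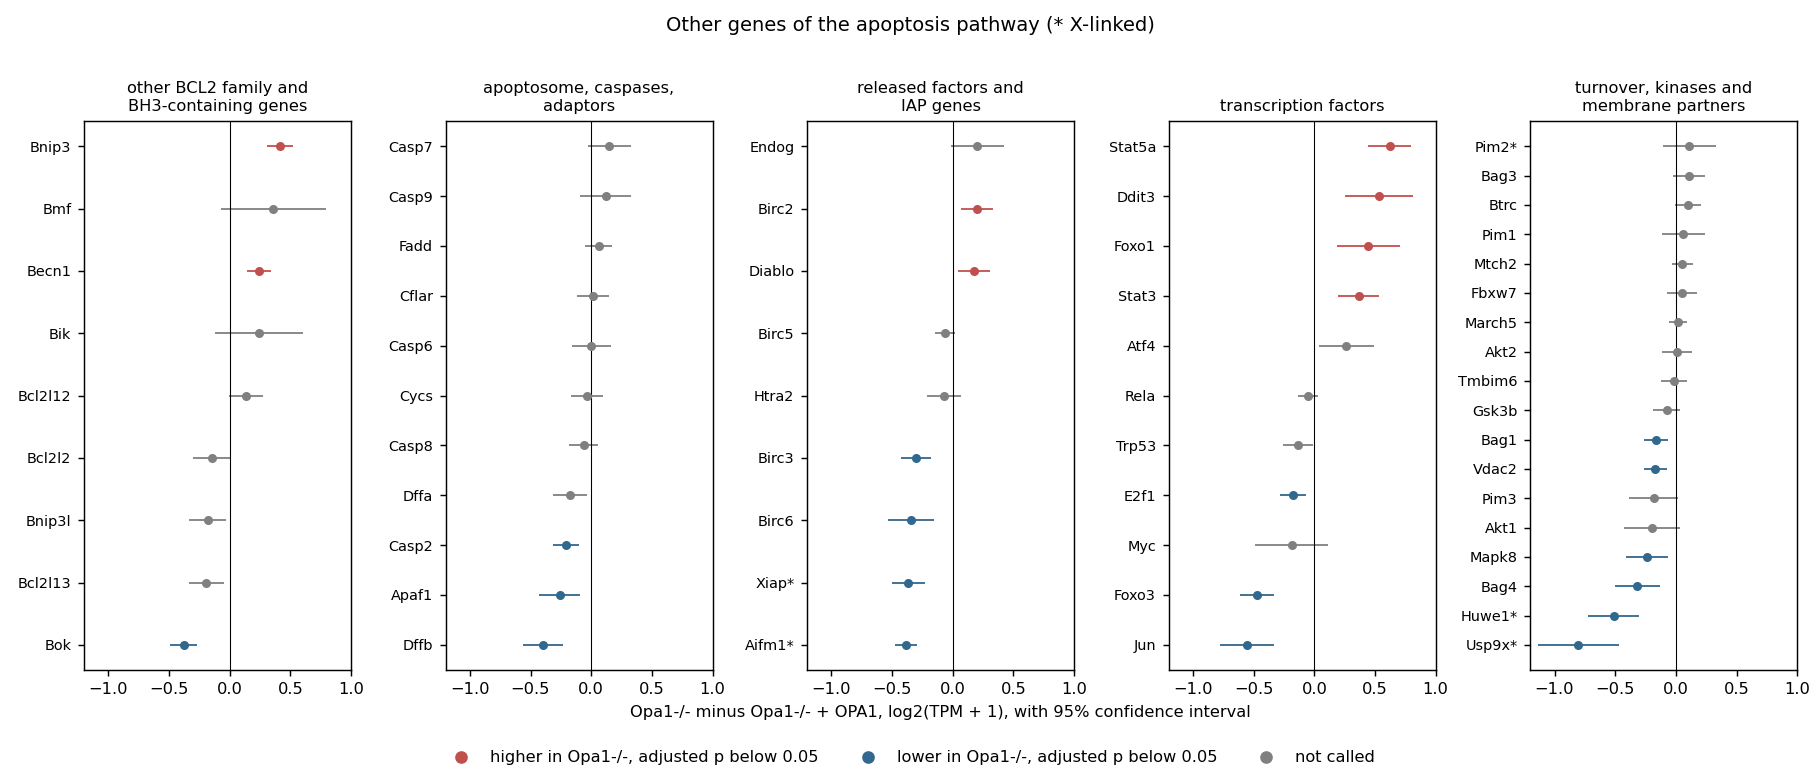
Difference of the tested genes of the 5 other lists, leaving out 1 gene of the second list, Opa1-/- minus Opa1-/- + OPA1, on the log2(TPM + 1) scale with its 95% confidence interval. Red marks genes called higher and blue genes called lower in Opa1-/- cells, gray those not called, and a star X-linked genes. No gene of the second and the fifth list is called higher.

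Among 7978 genes with a mean of at least 10 TPM, the profiles most like that of Bbc3 over the 8 libraries were those of Mrps34 (Pearson r 0.996), Eif2s3y (0.994) and Csad (0.990). Those most like Bak1 were Ccnf (0.998), Src (0.998) and Itgb1 (0.994). The libraries share their group, scaling and depth, and the group difference makes up most of such a profile, so these values only describe likeness.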

How the data were processed

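Per the labels' protocols, RNA came from the RNeasy Plus kit and the sequencing libraries from the NEBNext Ultra II RNA kit. The submitters' processing notes list STAR 2.5.2b, Subread 1.5.2, featureCounts and bcl2fastq, and name the builds GRCh38 and mm10 without saying what each was used for. The authors deposited TPM values per gene and library, per the file headers. Reads were recovered from TPM times exon length (94.6% to 94.9% whole within 0.05 of a read), an estimate that depends on the annotation, GENCODE M21 (GRCm38), which held 49056 of the 49315 identifiers.

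Scaling used an unweighted trimmed mean of log ratios, leaving out at each end 30% of the ratios and 5% of the levels. It was used since 4 noncoding RNA genes took 5.29% to 15.5% of the TPM, least in the libraries numbered 3. A gene was tested if 4 or more libraries held at least 1 TPM. The two-sided test was limma-trend (limma 3.58.1 under R 4.3.3) on log2(scaled TPM + 1), without covariates. The test was also run on simulated data with independent noise in each gene and library. That simulation held no length, GC, chromosome or replicate patterns, so it cannot show how the test behaves under them. Other steps used Python 3.11.15. No 2 libraries of a group agreed within sampling noise (lowest chi-square per degree of freedom 4.71).

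Deviations from the group means correlated at 0.246, 0.225, 0.317 and 0.119 between the libraries numbered 1 to 4 of the 2 groups (9416 genes). Between libraries of unlike number the correlations ran from -0.320 to 0.114, so the pair numbered 4 barely stood out. The label's replicate numbers were taken as pairs in the replicate block, and the main test did not use them. Alternatives were other scalings, pseudocounts and filters, the replicate block, leaving out each library or both numbered 3, testing protein-coding genes alone, and removal of chromosome medians or of length and GC trends. The last was also run with the block, which was added after seeing the data. The members and gene lists were chosen with earlier results of these data known. Named are all members and Opa1, up to 4 called genes with the largest difference per list, the 3 genes most like the member with the largest rise and fall, and the leading marker of each marker list. Any other gene given with values (Bcl2l13, Bnip3l, Bag3, Btrc, Pim2, Cycs, Trp53, Atf4, Myc, Vdac2, Bag1 and Gpr137 among them) was chosen after its values were seen. 1 gene of the apoptosome and caspase list is counted but not reported here. March5, listed under another name in the files, was found by its identifier.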

Additional observations from a re-analysis of the deposited data

Results flagged for a closer look

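Of 26 groups of values examined, 1 held a library far from the others, and chance alone marks about 1 in 20. It was Bcl2 in the Opa1-/- + OPA1 group, where library 1 was at 18.0 TPM and the other 3 libraries were at 16.7 TPM each. Without that library Bcl2 was higher in Opa1-/- cells by 0.27 (limma adjusted p = 0.0196).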

How the results depend on the processing

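Over 20 alternatives no difference of a member changed direction, and the calls of Bak1, Bbc3, Bcl2l11 and Bad held in all 20. On TPM as deposited Bcl2 was at 0.24 and Mcl1 at -0.15, both no longer called, so that 1 member was called lower, and 1529 genes in all were called lower against 2392 with scaling. With no filter Bcl2 was at 0.22, and without both libraries numbered 3 Bcl2 was at 0.21 and Mcl1 at -0.14, both uncalled, leaving 1 member lower. With chromosome medians removed Mcl1 was at -0.12 and Bax at 0.15, both uncalled, again leaving 1 member lower. With length and GC trends removed Bax was at 0.14 and uncalled, also with the replicate block (0.14, adjusted p = 0.0532). The replicate block gave Bcl2l1 a call at -0.14 (adjusted p = 0.0495), as it did with length and GC trends removed (-0.14, adjusted p = 0.0354), and it changed the call of no other member. The cause of these changes was not tested.

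Leaving out 1 library at a time gave Mcl1 at -0.16 to -0.12, called in 5 of 8 fits, and 1 to 2 members called lower. Pmaip1 could be fitted in 4 of these 8 fits and not with a filter of 5 TPM, since it fell below the filter, and its 26 to 65 reads a library limit what can be said of it. Of 200 counts of calls in the other lists 174 were within 1.5 times the main count and 26 were beyond it. The ratios of the 3 class sums were recomputed only under the other scalings, on TPM as deposited and with 1 library left out. There 33 of 33 values moved by less than the spread between libraries. Leaving out 1 of 4 libraries can hardly move a ratio further, so that count is no check. As log2 of Opa1-/- over Opa1-/- + OPA1, these ratios ran from -0.12 to -0.07 (anti-apoptotic), 0.09 to 0.15 (effector) and 0.19 to 0.24 (BH3-only). They were not recomputed under the remaining settings, among them those in which Bax or Mcl1 lost its call by removal of trends or chromosome medians.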
